A study of Homo sapiens with 6 samples.

Results

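The S100 genes encode small calcium-binding proteins, and 10 of them were followed here in MCF10A cells grown with or without growth factors: S100P, S100A2, S100A4, S100A6, S100A8, S100A9, S100A10, S100A11, S100A14 and S100A16. The members were given as a list of gene symbols, drawn up with earlier results of these data known. All 10 are among the 19198 genes of the deposited table. MCF10A is an established, non-malignant line of human mammary epithelial cells. RNA-Seq was carried out on 3 control samples and 3 depleted samples of this single line, numbered as replicates 1 to 3 in each condition, although the design text of the deposit speaks of 2 replicates. Both media held 5% horse serum. To this the control medium added 4 factors, which were hydrocortisone at 0.5 µg/ml, EGF at 20 ng/ml, insulin at 10 µg/ml and cholera toxin at 100 ng/ml. The depleted medium held none of the 4. The labels do not say whether the samples of a condition came from separate cultures, so the p-values measure the spread between these samples, which may be technical. The comparison asks which genes changed on growth factor removal, which the study used to move the cells towards a mesenchymal form.

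S100 proteins carry a pair of EF-hand calcium-binding loops and usually act as dimers. On binding calcium they expose a surface that docks onto target proteins, among them annexins, myosin and other cytoskeletal proteins. Some, such as S100A8 and S100A9, are also secreted and act on cell surface receptors. Most S100 genes lie in a cluster on the long arm of chromosome 1, beside the genes of the epidermal differentiation complex, and many are expressed in epithelia.

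Values are normalized counts, the reads of a gene divided by the sample's size factor, and gene length does not enter them. The samples held 7472418 to 28672630 reads on genes, and 3 reads were worth between 1.76 and 6.71 normalized counts. A gene was called when the limma test on log2(normalized count + 1) gave a Benjamini-Hochberg adjusted p under 0.05 over the 16988 genes tested, and the change was 2-fold or more. Marker genes of luminal, basal and fibroblast cells were compared between conditions. The study describes MCF10A cells as normal-like and basal. Of 12 luminal markers 9 are listed in the table, while ELF5, PGR and KIT are not, and all 11 basal markers are listed. The luminal markers summed to 22076 to 38715 normalized counts with growth factors and to 19034 to 44831 without. Of the 9, 7 had a negative log2 fold change (median -0.98) and 1, KRT19, was called lower (background, 1.97%). The basal markers summed to 102182 to 129322 with growth factors and to 61857 to 198384 without. Of the 11, 9 had a negative log2 fold change (median -0.5) and 1, TP63, was called lower (background, 1.97%). A large part of the sums without growth factors was KRT17. It was not called and had 5882 to 16142 normalized counts with growth factors and 19236 to 123480 without. For 11 fibroblast markers the sums were 1579 to 2445 with growth factors and 44571 to 92105 without, with THY1 at 0 in control replicates 1 and 2, and 8 of the 10 that could be tested were called higher (background, 4.36% of all genes tested). LUM, PDGFRA and PDGFRB were among these 8, with control means of 1.58, 0.941 and 6.95. They reached the minimum mean of 10 for testing only through the depleted samples. The part of the luminal, basal and fibroblast markers in the S100 results was not tested. In bulk RNA, fewer cells of a type and less RNA per cell cannot be told apart.

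Of the 10 S100 genes, 4 were called lower after growth factor depletion and 0 were called higher. S100P, S100A14, S100A8 and S100A9 were called lower (background, 1.97% of all genes tested). In each of these 4 every depleted sample lay below every control sample (background, 12.1%). Of the 4, only S100P was called in every alternative setting of the processing. S100A14 was called in 14 of 18, S100A9 in 9 of 18 and S100A8 in 9 of the 17 in which it was tested. S100A8 reached the minimum mean of 10 for testing only through the control samples, where its mean was 26.1, against 1.35 in the depleted samples. S100A2 had a lower mean level but was not called. S100A4, S100A6, S100A11 and S100A16 had positive log2 fold changes that did not pass, and S100A10 was near 0. No member was called higher by limma (background, 4.36%), 0 had a positive change at an unadjusted p under 0.05, and edgeR and DESeq2 also called 0 higher. In no member did all depleted samples lie above all control samples (background, 13.5%). The median log2 fold change of the 10 members was -1.01, against -0.03 over all genes tested.

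**Figure D1:**
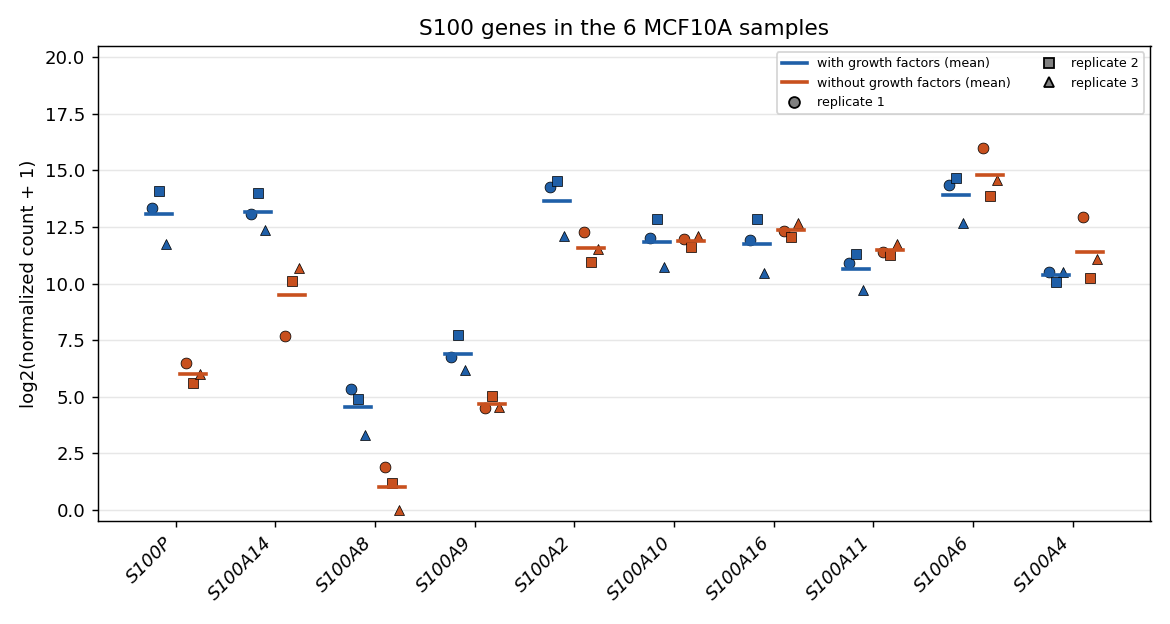
Levels of the 10 S100 genes in each sample, as log2(normalized count + 1) on the vertical axis, with genes ordered by their change. Blue points are the 3 control samples, orange points the 3 depleted samples, marker shapes give the replicate, and bars are means on the log2 scale. The colours separate without overlap for S100P, S100A14, S100A8 and S100A9 only among the 10.

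S100P showed the largest change of the 10 genes. It encodes an S100 protein that binds ezrin and is found in placenta and in many carcinomas. The gene (ENSG00000163993) is the one member outside chromosome 1, on chromosome 4 of hg38 from 6693878 to 6697170 on the plus strand. It stood at 10417, 17321 and 3436 normalized counts across control replicates 1 to 3, as against 87.9, 47.9 and 62.6 in the same order after depletion. The lowest control sample was thus far above the highest depleted sample. The mean went from 10391 ± 6943 to 66.1 ± 20.2 (SD, n = 3 in each condition). On the log2 scale the change was -7.03 (standard error 0.56, 95% interval -8.31 to -5.75, limma adjusted p = 0.000559), which is 131-fold lower with an interval of 54.0 to 318. S100P was called in all 18 alternative settings. Its log2 fold change was -7.69 without control replicate 3 and -6.52 without control replicate 2. Divided by transcript length, S100P ranked 19, 10 and 45 of 18913 genes in control replicates 1 to 3, and 6133, 8717 and 7584 after depletion. It made up 15.0% ± 1.68 of the summed S100 counts with growth factors and 0.133% ± 0.0343 without (SD, n = 3).

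S100A14 encodes an S100 protein of epithelial cells. The gene (ENSG00000189334) lies furthest along chromosome 1 of the members there, from 153614255 to 153616986 on the minus strand. Control replicates 1 to 3 had 8761, 16596 and 5217 normalized counts, and depleted replicates 1 to 3 had 204, 1115 and 1661. The depleted samples were not alike, since replicate 1 was well below the other two. S100A14 had a log2 fold change of -3.65 (standard error 0.76, 95% interval -5.39 to -1.92, limma adjusted p = 0.026), or 12.6-fold lower with an interval of 3.79 to 41.8. Without depleted replicate 1 the change was -2.74 (limma adjusted p = 0.0246), and without depleted replicate 3 it was -4.25 (limma adjusted p = 0.0284). The call was lost without control replicate 1 (adjusted p = 0.0897), control replicate 2 (adjusted p = 0.0842) or depleted replicate 2 (adjusted p = 0.0633), and when the limma variance trend was left out (adjusted p = 0.0552).

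S100A8 and S100A9 encode the subunits of calprotectin, a heterodimer that is abundant in neutrophils and is induced in stressed epithelia. S100A9 (ENSG00000163220, chromosome 1 from 153357854 to 153361023, plus strand) stood at 107, 210 and 70.8 normalized counts across control replicates 1 to 3, as against 22, 31.5 and 22.4 after depletion. The depleted values were tightly grouped and all were below the lowest control value. Its log2 fold change was -2.18 (standard error 0.53, 95% interval -3.39 to -0.98, limma adjusted p = 0.0469), or 4.54-fold lower.
S100A8 (ENSG00000143546, chromosome 1 from 153390032 to 153391073, minus strand) was near the limit of detection. Control replicates 1 to 3 had 32, 50 and 9 reads, and depleted replicates 1 to 3 had 3, 2 and 0. Summed over samples this is 91 against 5 reads, a ratio of 15.8 after scaling by the size factors, with an exact 95% counting interval of 6.55 to 49.95, which covers counting error only. The limma log2 fold change of -3.49 (standard error 0.85, adjusted p = 0.0477) depends on the pseudocount. It was -3.97 with a pseudocount of 0.5 (adjusted p = 0.0556) and -1.56 with a pseudocount of 10 (adjusted p = 0.0724).
Both calprotectin calls sat close to the threshold. Only the fit without control replicate 3 kept them among the 6 that left out 1 sample, with adjusted p = 0.0163 for S100A8 (log2 fold change -4.10) and adjusted p = 0.0151 for S100A9. For S100A8 the adjusted p was 0.176 and 0.146 without control replicates 1 and 2, and 0.0527, 0.142 and 0.172 without depleted replicates 1 to 3. For S100A9 it was 0.129 and 0.149 without control replicates 1 and 2, and 0.108, 0.123 and 0.174 without depleted replicates 1 to 3. By edgeR the adjusted p was 0.0489 for S100A8 and 0.0495 for S100A9, and by DESeq2 it was 0.006 and 0.000871.
Myeloid cells are another source of calprotectin. Of 12 myeloid markers 4 are listed in the table, and ITGAM, CSF3R, MPO, ELANE, FCGR3B, SPI1, TYROBP and AIF1 are not. The listed ones summed to between 294 and 916 normalized counts with growth factors and between 105 and 670 without. Most of this was CD14, which had 271 to 882 normalized counts in the control samples, while PTPRC, the pan-leukocyte gene, had 0 to 2.0 there and 10.1 to 13.8 in the depleted samples. Their part in the S100A8 and S100A9 results was not tested.

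The RefSeq sequence before the start of the genes that were called is shown because these 4 genes were called in the same direction. Each line gives the 250 bases before a RefSeq start (build GRCh38.p14), 5′ to 3′ on the gene's strand. Capitals mark matches on either strand to the TATA box letters TATAAA, the AP-1 motif TGANTCA, the RUNX motif TGTGGT and the C/EBP motif TTNNGNAA. RUNX letters were included because the study concerns Runx1.
The window of S100P is chr4:6693628-6693877, that of S100A8 chr1:153391074-153391323, that of S100A9 chr1:153357604-153357853 and that of S100A14 chr1:153616326-153616575.
S100P: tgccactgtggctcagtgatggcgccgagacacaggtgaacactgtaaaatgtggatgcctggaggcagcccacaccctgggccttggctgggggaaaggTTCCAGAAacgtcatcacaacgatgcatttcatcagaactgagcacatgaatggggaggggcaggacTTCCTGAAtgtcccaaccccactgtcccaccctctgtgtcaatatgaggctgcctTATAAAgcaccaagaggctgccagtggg
S100A8: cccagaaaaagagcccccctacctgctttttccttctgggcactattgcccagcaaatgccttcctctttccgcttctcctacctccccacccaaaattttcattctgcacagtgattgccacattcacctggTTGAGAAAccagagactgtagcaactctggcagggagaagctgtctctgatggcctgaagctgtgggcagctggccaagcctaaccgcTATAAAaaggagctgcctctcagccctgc
S100A9: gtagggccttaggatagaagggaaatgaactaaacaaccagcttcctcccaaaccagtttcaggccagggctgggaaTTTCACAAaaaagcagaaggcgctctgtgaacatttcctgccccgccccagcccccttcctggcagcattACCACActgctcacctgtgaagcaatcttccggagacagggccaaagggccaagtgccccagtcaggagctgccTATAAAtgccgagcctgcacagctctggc
S100A14: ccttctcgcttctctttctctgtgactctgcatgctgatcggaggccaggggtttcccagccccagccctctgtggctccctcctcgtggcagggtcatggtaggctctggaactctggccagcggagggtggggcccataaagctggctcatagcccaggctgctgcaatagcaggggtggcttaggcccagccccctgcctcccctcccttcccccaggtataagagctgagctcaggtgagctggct
S100P, S100A8 and S100A9 each hold TATAAA close to the start, with its first base 28, 29 and 29 bases before it. S100A14 holds none of the 4 motifs in this window. Over one window for each of the 10 members, the one nearest the Gencode start, TATAAA occurred in 4, the other being S100A4, against 10.7% of 35116 RefSeq promoter windows of the same length. The RUNX letters occurred in S100A9 and S100A11, 2 of 10 members, against 10.98% of all windows. The AP-1 letters occurred in S100A2 alone of the members (6.57% of all windows) and the C/EBP letters in 5 members (33.2%). These are matches of letters in a window, not measured sites, and 4 of the 10 windows lie directly before the Gencode start (S100P, S100A8, S100A9 and S100A10). The RefSeq start lies 661 bases from the Gencode start for S100A14, 2046 for S100A2, 4330 for S100A4 and 10903 for S100A11.

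**Figure D2:**
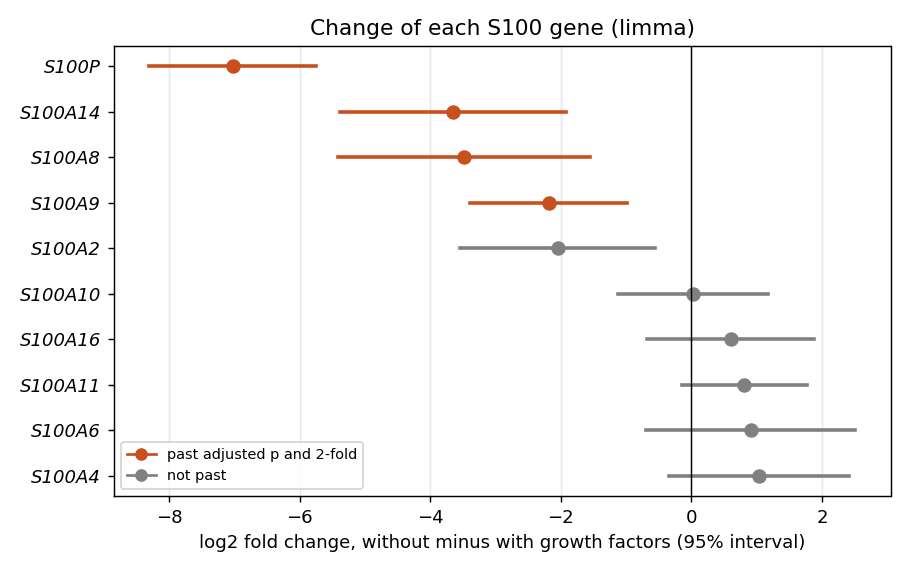
Change of each S100 gene, as the log2 fold change without minus with growth factors on the horizontal axis, with the limma 95% interval as a bar. Orange marks the 4 genes called lower and grey the 6 that were not called. The interval of S100A2 (-3.54 to -0.56) lies below 0 although its adjusted p does not pass.

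S100A2, an S100 protein of basal and squamous epithelium known as a target of p53 and p63, was among the most abundant members with growth factors. The gene (ENSG00000196754) lies on chromosome 1 from 153561108 to 153567890. It stood at 19676, 23978 and 4417 normalized counts across control replicates 1 to 3, as against 5002, 1987 and 2972 in the same order after depletion. The groups overlap through control replicate 3, which was below depleted replicate 1. The log2 fold change was -2.05 (standard error 0.65, 95% interval -3.54 to -0.56) with a limma adjusted p of 0.115. Without control replicate 3 it was -2.81 (limma adjusted p = 0.00826). DESeq2 also called it (adjusted p = 0.00292), and so did limma after correction for transcript length and GC content (adjusted p = 0.0479), while edgeR did not (adjusted p = 0.0873). TP63, the gene of p63, stood at 271, 359 and 1615 normalized counts with growth factors, compared with 8.2, 64.9 and 42.5 without, and was called lower (log2 fold change -4.18, limma adjusted p = 0.027). Control replicate 3 was therefore the lowest control sample for S100A2 and the highest for TP63. The transcript is 977 bases long for S100A2 and 4944 for TP63, and gene levels in this library varied with transcript length. The part of length in this ranking was not tested. The TP63 call was lost without control replicate 1 (adjusted p = 0.0524), control replicate 2 (adjusted p = 0.0601) or depleted replicate 3 (adjusted p = 0.0664), and when the variance trend was left out (adjusted p = 0.051). The change of TP63 was -3.39 without control replicate 3 and -3.34 without depleted replicate 1.

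S100A6, also called calcyclin, was the most abundant member per transcript length in each of the 6 samples and ranked between 2 and 14 among the 18913 genes. The gene (ENSG00000197956) lies on chromosome 1 from 153534599 to 153536244. It stood at 21199, 26026 and 6594 normalized counts across control replicates 1 to 3, as against 65661, 14831 and 24542 after depletion. Depleted replicate 1 was far above all others, and the remaining samples of both conditions overlapped. S100A6 had a log2 fold change of 0.91 (95% interval -0.70 to 2.51, limma adjusted p = 0.548).
S100A4, a protein that binds non-muscle myosin and is widely used as a fibroblast and mesenchymal marker, had a similar pattern. The gene (ENSG00000196154) lies on chromosome 1 from 153543613 to 153550136. It stood at 1468, 1079 and 1464 normalized counts with growth factors, compared with 7791, 1201 and 2147 without. Depleted replicate 2 lay within the control range. The log2 fold change was 1.04 (95% interval -0.35 to 2.42, limma adjusted p = 0.402), and it was 0.28 without depleted replicate 1. For S100A6 the log2 fold change was 0.31 without depleted replicate 1, 0.29 without control replicate 3 and 1.38 without depleted replicate 2.

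S100A10, S100A11 and S100A16 were broadly expressed and not called. S100A10 (ENSG00000197747, chromosome 1 from 151982915 to 151993859) encodes p11, the annexin A2 partner that takes part in plasminogen activation at the cell surface. It stood at 4123, 7335 and 1697 normalized counts across control replicates 1 to 3, as against 3958, 3097 and 4407 after depletion, so the depleted values fell inside the control range. Its log2 fold change was 0.02 (95% interval -1.12 to 1.17, limma adjusted p = 0.989), and the sign turned in several settings.
S100A11 (ENSG00000163191, chromosome 1 from 152032506 to 152047907), a partner of annexin A1, had 1940, 2539 and 847 normalized counts with growth factors, compared with 2707, 2429 and 3437 without. S100A11 had a log2 fold change of 0.81 (95% interval -0.15 to 1.77, limma adjusted p = 0.336). A pseudogene, S100A11P1, is also listed with 19.7 to 51.8 normalized counts per sample, so that reads of the copies may be shared.
S100A16 (ENSG00000188643, chromosome 1 from 153606886 to 153613145), a widely expressed member, stood at 3923, 7370 and 1402 normalized counts with growth factors, compared with 5108, 4208 and 6607 without. Its log2 fold change was 0.60 (95% interval -0.68 to 1.88, limma adjusted p = 0.626) and was -0.04 without control replicate 3.

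Control replicate 3 was the lowest control sample for 9 of the 10 members, all but S100A4. On the log2 scale its gap to the mean of control replicates 1 and 2 had a median of -1.765 over the members and of -0.02 over all genes tested. Gene levels in a library also varied with the length of the transcript. The deviation of a library was taken from each gene's mean over all 6 samples, so it also holds any difference between conditions. Across 13035 genes, Spearman's rho between length and this deviation was 0.342 for control replicate 3 and -0.359 for control replicate 2. It was -0.106 for control replicate 1, and -0.00365, 0.250 and -0.159 for depleted replicates 1 to 3. Depleted replicate 2 was the lowest depleted sample for 7 of the 10 members. The genes are not independent replicates. The canonical transcripts of the members are 408 to 1172 bases long. After correction for length and GC content the median gap of control replicate 3 was -0.79, and the log2 fold changes of the 4 called genes were -7.19 for S100P, -3.72 for S100A14, -3.62 for S100A8 and -2.33 for S100A9. All 4 were called after this correction.

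The summed level of the family overlapped between conditions, while the shares of single members in it did not for S100P, S100A6, S100A2, S100A14, S100A8 and S100A9. The 10 members together held 71653, 102483 and 25153 normalized counts across control replicates 1 to 3, as against 90543, 28948 and 45857 after depletion. They came to 0.390% ± 0.222 of all normalized counts with growth factors and 0.345% ± 0.209 without (SD, n = 3). The share of S100A6 in the sum was 27.1% ± 2.22 with growth factors and 59.1% ± 11.7 without, that of S100A2 was 22.8% ± 4.98 and 6.29% ± 0.689, and that of S100A14 was 16.4% ± 4.26 and 2.57% ± 2.03 (SD, n = 3). These shares add to a fixed total, so they are not independent of each other.
Per kilobase of canonical transcript, the order of the mean levels with growth factors was S100A6, S100P, S100A2, S100A14, S100A10, S100A16, S100A11, S100A4, S100A9 and S100A8. Neighbours from S100A6 down to S100A4 overlapped in their ranges, whereas S100A4, S100A9 and S100A8 were separated from each other. Without growth factors the order was S100A6, S100A4, S100A10, S100A11, S100A16, S100A2, S100A14, S100P, S100A9 and S100A8. Here S100A6 stood clear of S100A4, neighbours from S100A4 to S100A2 overlapped, and S100A2, S100A14, S100P, S100A9 and S100A8 were each separated from the next. Per kilobase, S100P had a mean of 22063 ± 14740 normalized counts with growth factors and 140 ± 43.0 without (SD, n = 3).

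The chromosome 1 members lie within 1.63 Mb, from 151982915 to 153616986. Called and uncalled genes alternate along this stretch. S100A10 and S100A11 at the near end were not called, S100A9 and S100A8 were lower, S100A6, S100A4, S100A2 and S100A16 were not called, and S100A14 at the far end was lower again. S100A6, S100A5, S100A4 and S100A3 are consecutive listed genes, and depleted replicate 1 was the highest of the 6 samples for each of them. It exceeded the higher of the other depleted samples 2.68-fold for S100A6, 11.7-fold for S100A5, 3.63-fold for S100A4 and 5.91-fold for S100A3. Depleted replicate 1 had the highest summed fibroblast markers (92105 normalized counts) and the lowest summed basal markers (61857 normalized counts) of the 6 samples. Whether these differences are linked was not tested.

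**Figure D3:**
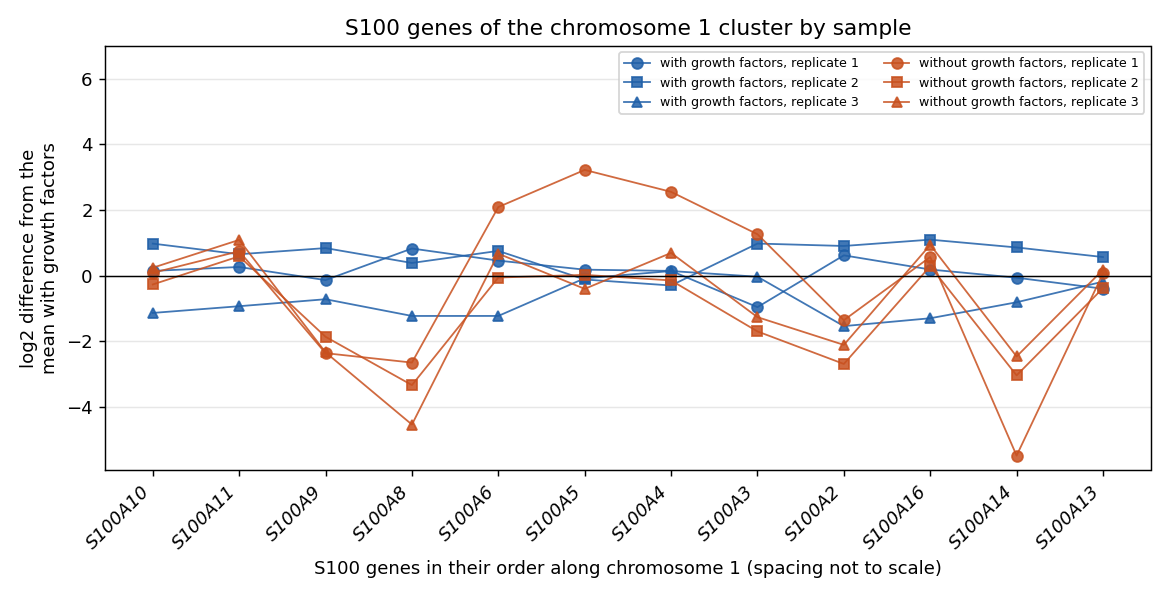
S100 genes in their order along chromosome 1, with S100A3, S100A5 and S100A13 added, on the horizontal axis, and each sample's log2 difference from the control mean on the vertical axis. Blue lines are control samples and orange lines depleted samples, with marker shapes for replicates. The depleted samples dip at S100A9, S100A8, S100A2 and S100A14, and depleted replicate 1 stands above the rest from S100A6 to S100A3.

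Of 11 other S100 genes 3 are listed in the table. S100A3 stood at 38.9, 152 and 74.8 normalized counts with growth factors, compared with 185, 22.9 and 31.3 without (log2 fold change -0.56, limma adjusted p = 0.777). S100A13 had 687, 1342 and 798 against 949, 696 and 1026 (log2 fold change -0.04, limma adjusted p = 0.973). S100A5 had 2.9 to 3.8 normalized counts among the controls, compared with 38.4, 3.3 and 2.2 in depleted replicates 1 to 3, below the minimum mean for testing. Neither tested gene was called by limma, edgeR or DESeq2, and 0 had an unadjusted p under 0.05. S100A3 lies inside the S100A4 gene on the same strand, so their reads may not be fully separated. An antisense gene overlaps S100A6 and another overlaps S100A11, and the strand setting of the counting was not stated.
Besides S100 genes, 6 genes between S100A10 and S100A14 are listed and 3 passed the minimum mean, of which FLG alone was called, in the higher direction (background, 4.36%). FLG, the gene of filaggrin, had 1, 0 and 0 reads in the control samples and 81.5, 36.1 and 62.6 normalized counts in the depleted samples. It reached the minimum mean only through the depleted samples, where its mean was 60.0, against 0.418 in the control samples. The summed reads were 1 against 172, a ratio of 198 after scaling by the size factors, with an exact 95% counting interval of 35.0 to 7850 (limma adjusted p = 0.00346). Its antisense partner FLG-AS1 is listed with 0.6 to 15.7 normalized counts. IVL, the gene of involucrin, had 7.9 to 190 normalized counts with growth factors and 15.6 to 60.3 without (limma adjusted p = 0.995).

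Annexins are calcium-dependent membrane-binding proteins, and several of them bind S100 dimers. Of 13 annexins 11 were tested, 1 was called higher and 1 lower (background for either direction, 6.33%), with a median log2 fold change of 0.28. ANXA6 stood at 8.8, 9.4 and 13.8 normalized counts across control replicates 1 to 3, as against 1845, 661 and 888 after depletion. The log2 fold change of 6.49 (95% interval 5.39 to 7.59, limma adjusted p = 0.000445) was called in all 18 alternative settings. ANXA8 stood at 328, 400 and 1100 normalized counts with growth factors, compared with 88.8, 115 and 80.5 without (log2 fold change -2.47, limma adjusted p = 0.0212), and its near-identical copy ANXA8L1 makes its count uncertain. The ANXA8 call was lost without depleted replicate 1 (adjusted p = 0.0536), 2 (adjusted p = 0.065) or 3 (adjusted p = 0.0889).
ANXA2, the partner of S100A10, had 21641, 23883 and 8961 normalized counts with growth factors, compared with 12561, 19107 and 23097 without (log2 fold change 0.09, 95% interval -1.04 to 1.21, limma adjusted p = 0.955). Taken per kilobase, S100A10 stood at 0.441, 0.711 and 0.439 of ANXA2 among the controls, compared with 0.730, 0.375 and 0.442 in the depleted samples, which overlap.
ANXA1, the partner of S100A11, had 17618, 38565 and 4943 normalized counts with growth factors, compared with 6221, 5532 and 5073 without (log2 fold change -1.42, limma adjusted p = 0.285). Without control replicate 3 the change of ANXA1 was -2.22 (limma adjusted p = 0.0139), and without control replicate 2 it was -0.74 (limma adjusted p = 0.563). DESeq2 called ANXA1 lower (adjusted p = 0.0253). The per-kilobase ratio of S100A11 to ANXA1 was 0.274, 0.164 and 0.427 among the controls, compared with 1.08, 1.09 and 1.69 in the depleted samples. Every depleted ratio was above every control ratio, with a log2 difference of 2.23 and an exact two-sided permutation p of 0.1, the smallest that 3 against 3 allows (0.4 after adjustment over 4 ratios).
The ratio of S100A9 to S100A8 was 1.86, 4.97 and 5.19 among the controls, compared with 4.37, 10.0 and 16.6 in the depleted samples, with 1 added to each count (exact permutation p = 0.3, 0.6 adjusted), and rests on 5 reads of S100A8 in the depleted samples. CACYBP, the gene of the calcyclin-binding protein, stood at 968, 1326 and 333 normalized counts with growth factors, compared with 835, 1126 and 1181 without (limma adjusted p = 0.681), and the ratio of S100A6 to CACYBP overlapped between conditions (exact permutation p = 0.8, 1 adjusted).

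Of 17 further binding partners 15 were tested, 2 were called higher and 1, TP63, was called lower (background, 4.36% higher and 1.97% lower), with a median log2 fold change of 0.15. MYH9, the heavy chain of non-muscle myosin IIA and a target of S100A4, stood at 13862, 18601 and 16258 normalized counts with growth factors, compared with 40001, 69186 and 80717 without. Its groups are well apart, and the log2 fold change was 1.91 (95% interval 0.86 to 2.96, limma adjusted p = 0.0461). MYH9 was called in 8 of 18 alternative settings. Among others, the call was lost with quantile normalization (adjusted p = 0.0737), after the length and GC correction (adjusted p = 0.0825), and without control replicate 1 (adjusted p = 0.142), control replicate 2 (adjusted p = 0.106), depleted replicate 2 (adjusted p = 0.194) or depleted replicate 3 (adjusted p = 0.204).
PLAT, which encodes tissue plasminogen activator, stood at 6.3, 32.2 and 128 normalized counts across control replicates 1 to 3, as against 11383, 1428 and 2929 after depletion (log2 fold change 6.85, 95% interval 4.43 to 9.26, limma adjusted p = 0.00769). PLAT kept its call whichever sample was omitted. The change was 5.79 without control replicate 1, 7.87 without control replicate 3, 6.02 without depleted replicate 1 and 7.52 without depleted replicate 2. AHNAK, a scaffold bound by S100A10 and annexin A2, had a log2 fold change of -0.41 (95% interval -1.84 to 1.01), and EZR, the gene of ezrin, had one of 0.46 (95% interval -0.40 to 1.31). Neither AHNAK nor EZR was called.
Of 12 receptors named for extracellular S100 proteins, 9 were tested and 1 was called higher (background, 4.36%), with a median log2 fold change of 0.16. TLR4, a receptor for calprotectin, stood at 174, 230 and 197 normalized counts with growth factors, compared with 1177, 1457 and 979 without. The log2 fold change was 2.57 (95% interval 1.91 to 3.24, limma adjusted p = 0.00214) and was called in all 18 alternative settings. LY96, the gene of its co-receptor MD-2, is not listed in the table. AGER, the gene of the receptor RAGE, stood at 18.8, 39.8 and 184 normalized counts with growth factors, compared with 6.4, 7.9 and 15.7 without, groups that did not overlap, but was not called (log2 fold change -2.37, limma adjusted p = 0.16). DESeq2 called AGER (adjusted p = 0.00743). AGER reached the minimum mean of 10 for testing only through the control samples, where its mean was 80.9, against 9.98 in the depleted samples. BSG, the gene of basigin, stood at 10592, 8161 and 5386 normalized counts against 6954, 6474 and 7600 (log2 fold change -0.15, limma adjusted p = 0.867).

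**Figure D4:**
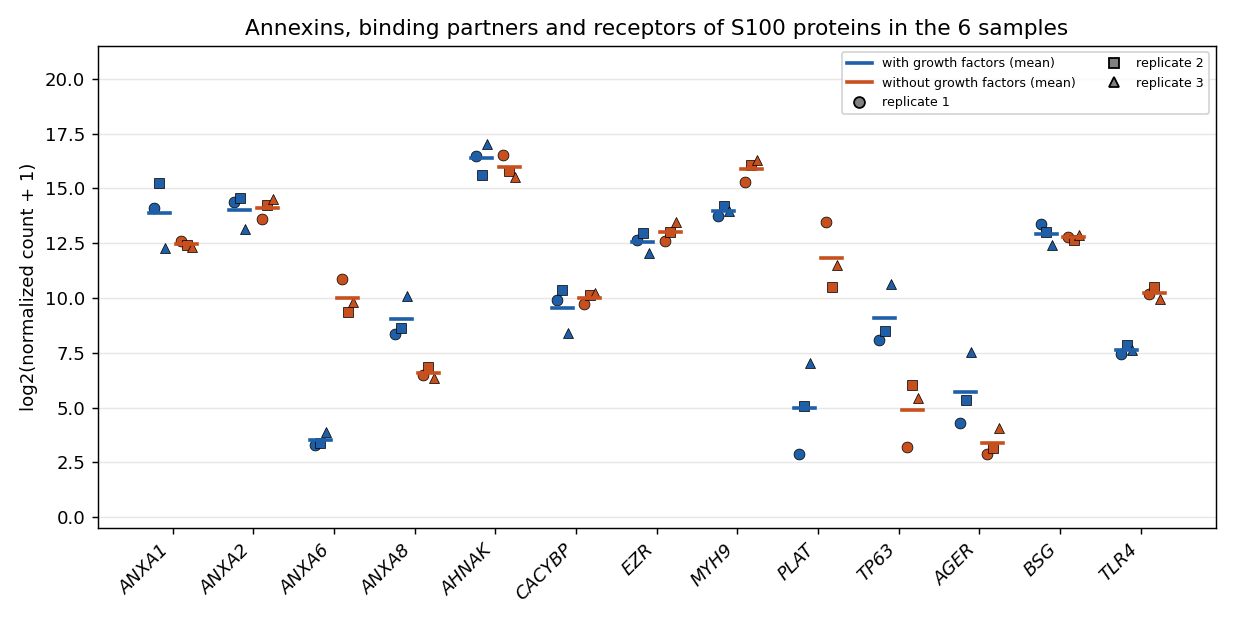
Annexins, binding partners and receptors of S100 proteins in each sample, as log2(normalized count + 1) on the vertical axis. Blue points are control samples, orange points depleted samples, marker shapes give the replicate and bars are means on the log2 scale. ANXA6, MYH9, PLAT and TLR4 are higher in all 3 depleted samples, and ANXA8, TP63 and AGER are lower in all 3.

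Among 11633 genes outside the S100 family whose mean reached 100 normalized counts, those whose log2 levels were most like a member's were listed by Pearson's r over the 6 samples, as a description. The samples fall into 2 conditions and each pair of genes is compared over the same libraries. For S100P these were RINT1 (r = 0.997) and OSBPL5 (r = 0.996). RINT1 had 752, 817 and 636 normalized counts across control replicates 1 to 3, as against 370, 357 and 385 after depletion. Pearson's r takes no account of the size of a change, which was far smaller for RINT1 than for S100P. For S100A14 they were PCSK6 (r = 0.997), with 238, 315 and 128 normalized counts across control replicates 1 to 3, as against 7.3, 39.3 and 47.0 after depletion, and NCCRP1 (r = 0.995). For S100A8 they were ACADM (r = 0.998) and AK4 (r = 0.995), for S100A9 AGK (r = 0.995) and NAMPTP1 (r = 0.987), and for S100A2 APIP (r = 0.997) and SLC25A5 (r = 0.996). For S100A4 they were GPN2 (r = 0.987) and LOXL4 (r = 0.985). LOXL4 had 45.1, 24.6 and 47.2 normalized counts across control replicates 1 to 3, as against 1006, 42.0 and 163 after depletion, again highest in depleted replicate 1. For S100A6 they were FAM104A (r = 0.996) and DEXI (r = 0.987), for S100A10 TXNL4A (r = 0.996) and MRPL36 (r = 0.995), for S100A11 CLTB (r = 0.998) and TRIM26 (r = 0.997), and for S100A16 ARF1 (r = 0.996) and SUMO2P21 (r = 0.994).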

How the data were processed

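Total RNA of 6 MCF10A samples was depleted of ribosomal RNA and sequenced from strand-specific libraries as single-end reads of 100 bases. The authors trimmed with cutadapt, mapped to hg38 with TopHat2, counted per gene with HTSeq on Gencode v22 and divided by DESeq2 size factors. Versions in the submitters' processing notes are cutadapt 1.6, HTSeq 0.6, DESeq2 1.8.1 and R 3.2.0. The HTSeq strand setting is not given in the sources used here. What the authors deposited is thus a size-factor-normalized signal for each gene, which takes no account of length. Every value was a whole multiple of the value of 1 read (100% within 0.01), so reads were recovered.

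Gencode v44 (hg38) supplied gene names for 18913 of the 19198 identifiers, with coordinates and canonical transcript lengths. RefSeq (GRCh38.p14) supplied promoter windows, and all 10 members matched. Tests used limma 3.58.1 (lmFit, eBayes with a trend, two-sided) in R 4.3.3 on log2(normalized count + 1) with no block, and 16988 genes whose mean reached 10 were kept. Alternatives were other pseudocounts, filters and scalings, no trend, the replicate block, each sample left out, a length and GC correction, and edgeR 4.0.16 and DESeq2 1.42.0 on recovered reads. The limma step was tested on simulated data. Python 3.11.15 (pandas 2.3.3, numpy 2.4.6, matplotlib 3.10.9, scipy 1.17.1) was used for tables and figures.

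The members and lists were chosen with earlier results of these data known. Named are the 10 members, other listed S100 genes, list genes that were called plus ANXA1, ANXA2, CACYBP, AHNAK, MYH9, EZR, TP63, TLR4, BSG and AGER, and the 2 genes most like each member. S100A11P1, IVL, ANXA8L1, CD14, PTPRC and the other marker genes named were picked after their values were seen. Counting intervals cover counting error only.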

Additional observations from a re-analysis of the deposited data

How the results depend on the processing

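The calls near the threshold depended on the processing, whereas S100P was called lower in all 18 alternative settings. The number of members called lower was 4 as reported, 4 with edgeR and 5 with DESeq2. It was 2 with a minimum mean of 50, where S100A8 was not tested and S100A9 had an adjusted p of 0.0631, and 2 with the replicate block and the length and GC correction together, and leaving out samples in turn moved it from 1 to 5. The replicate block alone gave 3, with S100A9 at an adjusted p of 0.0786, and MYH9 also lost its call under it (adjusted p = 0.16). Same-numbered samples did not deviate together (correlations -0.0726, -0.283 and -0.323 for numbers 1 to 3), so the numbers were not taken as pairs. Rescaling to the same total put S100A9 at an adjusted p of 0.0502. No member was called higher in any setting. Leaving out a sample gave 1 to 3 annexins, 1 to 4 partners and 1 to 2 receptors. The block with the length and GC correction gave 1 annexin, DESeq2 gave 2 receptors, and the minimum mean of 50 gave 0 cluster neighbours, since FLG was then not tested.

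Changes near 0 turned sign. S100A10 had a log2 fold change of -0.15 with edgeR, -0.17 with DESeq2 and -0.01 after the length and GC correction with or without the block, and -0.54 to 0.51 when a sample was left out. S100A13 had 0.03 with quantile normalization, 0.01 with the same total and -0.24 to 0.25 without 1 sample. Leaving out a sample gave -0.04 to 1.15 for S100A16, -1.47 to 0.00 for S100A3, -0.36 to 0.35 for ANXA2, -0.13 to 0.87 for CACYBP and -0.41 to 0.08 for BSG. The log2 difference in the ratio of S100A9 to S100A8 was -0.30 with a pseudocount of 10. That of S100A10 to ANXA2 was 0.16 with quantile normalization and -0.34 to 0.17 without 1 sample, and that of S100A6 to CACYBP was -0.30 to 0.99 without 1 sample. The cause of these changes was not tested, beyond genes that a filter left out. Over all genes, limma called 1076, DESeq2 2112 and the block with the correction 705, and leaving out each sample gave 453 to 2474, the highest without control replicate 3. Depth limits S100A8, S100A5, FLG, FLG-AS1, LUM, PDGFRA, PDGFRB, THY1 and PTPRC, each with 3 reads or fewer in at least 1 sample.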
